A study of Mus musculus with 72 samples.

Results

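The genes described here carry the immune presentation and interferon programmes of mouse pancreatic islets: 54 of the 14604 genes in the expression table. Every gene whose symbol starts with H2-, the prefix of the mouse major histocompatibility complex (MHC), was taken, which gave 22 genes, and 32 further genes of antigen processing and of the interferon response were listed by name. By role they were 2 classical class I genes, 12 non-classical class I genes, the pseudogene H2-K2, 8 genes of class II and its chaperones, 4 genes of class I loading, 3 immunoproteasome subunits, 2 MHC transactivators and 22 interferon-induced genes. On the mouse genome build GRCm38, 26 of the 54 lay between H2-K2 and H2-M3 on chromosome 17 (chr17:33974659-37274484), among 106 genes tested in that interval, and 28 lay elsewhere. The annotation lists H2-Ea-ps, H2-Q5, H2-T10 and Mx2 as polymorphic pseudogenes, meaning that some strains carry an intact copy.

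Islets came from male mice aged 8 weeks, per the growth protocol, of the inbred strains C57BL/6J, DBA/2J or BALB/cJ. The mice ate either regular chow (RC) or a diet high in fat (HFD), and islets were taken at 5, 13 or 33 days. No group carried a transgene, a deletion or a drug. RNA came from 120 to 150 hand-picked islets of each mouse after a night in culture medium, so a library stands for 1 mouse and p-values measure the spread between mice. Values were given for 69 libraries in 18 groups, 15 of 4 mice and 3 of 3 (C57BL/6J on chow at day 33, DBA/2J on HFD at day 13 and DBA/2J on chow at day 33): C57BL/6J had 11 libraries on chow and 12 on HFD, DBA/2J had 11 and 11, and BALB/cJ had 12 and 12. The strain label of the first group is spelled C56BL/6J and was read as C57BL/6J, and the series text names day 13 in place of day 33.

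MHC class I molecules are a heavy chain (H2-K, H2-D or H2-L in mice) held by beta-2-microglobulin, and they show peptides cut by the proteasome, imported by the Tap1/Tap2 transporter and loaded with the help of tapasin (Tapbp) to CD8 T cells. Class II molecules show peptides from the endosome to CD4 T cells and are made mainly by macrophages, dendritic cells and B cells, with Cd74 as their invariant chain and Ciita as the transcription factor that switches them on. Interferons raise class I genes, the immunoproteasome and a set of antiviral genes in most cells. In islets these genes are studied because class I is abundant on beta cells in autoimmune diabetes, and because islets hold resident macrophages. The MHC differs between the strains by descent: C57BL/6J carries the b haplotype of H-2, and DBA/2J and BALB/cJ both carry the d haplotype.

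Promoters of members whose strain differences are described below are shown first, because they hold the letters that interferon-activated factors bind. The motif searched was the interferon-stimulated response element, taken as GAAA, any 2 bases and GAAA again, on both strands (on the other strand it reads TTTC, any 2 bases and TTTC), from 250 bases before to 50 after each gene's start in RefSeq (build GRCm38.p6). Each line gives a stretch 5′ to 3′ on the gene's strand, with the motif in capitals.

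B2m, chr2:122147518-122147587, + strand: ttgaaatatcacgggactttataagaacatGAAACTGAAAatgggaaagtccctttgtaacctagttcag
H2-T22, chr17:36042894-36042963, - strand: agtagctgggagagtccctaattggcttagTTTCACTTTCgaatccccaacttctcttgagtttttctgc
Rsad2, chr12:26456533-26456602, - strand: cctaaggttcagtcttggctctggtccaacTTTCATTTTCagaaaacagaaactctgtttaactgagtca
Isg15, chr4:156200857-156200926, - strand: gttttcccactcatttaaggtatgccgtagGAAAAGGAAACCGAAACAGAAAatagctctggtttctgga
Igtp, chr11:58199492-58199555, + strand: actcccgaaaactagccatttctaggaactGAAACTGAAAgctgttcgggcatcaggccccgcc
Ifit1, chr19:34640774-34640843, + strand: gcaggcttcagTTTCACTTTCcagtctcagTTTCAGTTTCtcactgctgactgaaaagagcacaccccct

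The Isg15 stretch holds 3 overlapping copies of the motif and the Ifit1 stretch holds 2. Promoters were matched for 40 of the 54 members. The motif was in 16 of the 40 (40%), against 3.99% of 27025 genes with a promoter of the same length. Among the interferon-induced members it was in 13 of 19. Among the other members it was in 3 of 21, namely B2m, H2-T22 and H2-T23. A second motif, CCAAT, the letters read by NF-Y in MHC promoters, was in 24 of 40 (60%) against 41.1% of all genes. CCAAT stood in 18 of the 21 members outside the interferon group and in 6 of the 19 within it. A match is a description of letters in the reference genome, which is that of C57BL/6J, and says nothing about binding in these islets.

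Values are log2 CPM, where CPM counts reads of a gene scaled to a fixed library size: a difference of 1 is a doubling, and 0 stands for 1 CPM. The libraries held between 12292621 and 34591079 reads assigned to genes (median 22756199), and the lowest value possible, -3.54, stands for 0 reads. Beta-cell markers summed to medians of 177000, 194000 and 218000 CPM in C57BL/6J, DBA/2J and BALB/cJ. Of the macrophage markers, 12 of 13 were in the table (Itgam was not), with sums of 99.5 to 287.7, 84.7 to 152 and 88.5 to 333 CPM. The B-cell markers in the table summed to 9.19 to 61.9, 6 to 223 and 5.34 to 112 CPM. Of the dendritic-cell markers 2 of 6 were present, and of the T and NK cell markers 0 of 8. In such bulk samples, fewer cells of a type and less RNA per cell cannot be told apart.

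3 libraries stood apart on the members. The third HFD replicate of C57BL/6J at day 13 held the strain's highest value for 26 of the 53 members that vary within it, among 23 libraries. The fourth HFD replicate of BALB/cJ at day 13 was highest for 20 of 54 among 24, and the third HFD replicate of DBA/2J at day 5 for 18 of 54 among 22. Replicate numbers follow the order of deposit and only name a library. Some results that rest on these libraries are also given without them.

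Reads of all strains were aligned to one genome, GRCm38, the C57BL/6J sequence. Reads from d-haplotype alleles that differ much from it can be lost or placed on a related gene, and for H2 genes this cannot be told apart from a difference in RNA. Within the reference, the share of 125-base windows (the read length) that occur in another gene too was 8.86% for H2-Q5, 8.53% for H2-Q7, 7.19% for H2-Q6, 5.44% for H2-Q1, 5.24% for H2-Q10, 3.74% for H2-Q2, 3.04% for H2-T22, 2.62% for H2-D1, 0.072% for H2-K1 and 0 for H2-Aa, H2-Ab1, H2-Eb1 and H2-Ea-ps. Of the interferon-induced genes, Ifit3 shared 23.4% of its windows, with Ifit3b, and Gbp7 9.18%, so values of these genes are uncertain.

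The comparison of strains on chow asked which members differ with genetic background, and the H2 genes differed most. In DBA/2J against C57BL/6J, 35 of the 54 members passed the test (15 higher, 20 lower; 64.8% of members against 54.5% of all genes tested). In BALB/cJ against C57BL/6J, 36 passed (17 higher, 19 lower; 66.7% against 56.3%), and in BALB/cJ against DBA/2J 16 passed (7 higher, 9 lower; 29.6% against 35%). The test was limma's moderated test across all 14604 genes, averaged over days, with a Benjamini-Hochberg adjusted p under 0.05 called. The first 2 comparisons share the C57BL/6J libraries and are therefore not independent.

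Among the 22 H2 genes, 20 (90.9%) passed against C57BL/6J in each strain, 10 higher and 10 lower each time. Of all genes, 54.5% passed in DBA/2J and 56.3% in BALB/cJ. Between BALB/cJ and DBA/2J, both of the d haplotype, 6 H2 genes passed (27.3%, against 35% of all genes). The median size of the H2 differences was 1.50 in DBA/2J and 1.53 in BALB/cJ against C57BL/6J, and 0.09 between BALB/cJ and DBA/2J. Over all genes the same medians were 0.20, 0.21 and 0.13. Differences over 1 were found for 12 H2 genes (54.5%) in DBA/2J and 13 (59.1%) in BALB/cJ, against 6.48% and 6.88% of all genes, and for 1 H2 gene between BALB/cJ and DBA/2J, against 4.85%. The 80 other tested genes of the same stretch of chromosome 17 did not show such sizes: 42 (52.5%) and 46 (57.5%) of them passed against C57BL/6J, but 6 (7.5%) and 4 (5%) differed by over 1. Of the 32 listed members, 15, 16 and 10 passed in the 3 comparisons. These are 46.9%, 50% and 31.2%, each below the 54.5%, 56.3% and 35% of all genes.

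**Figure D1:**
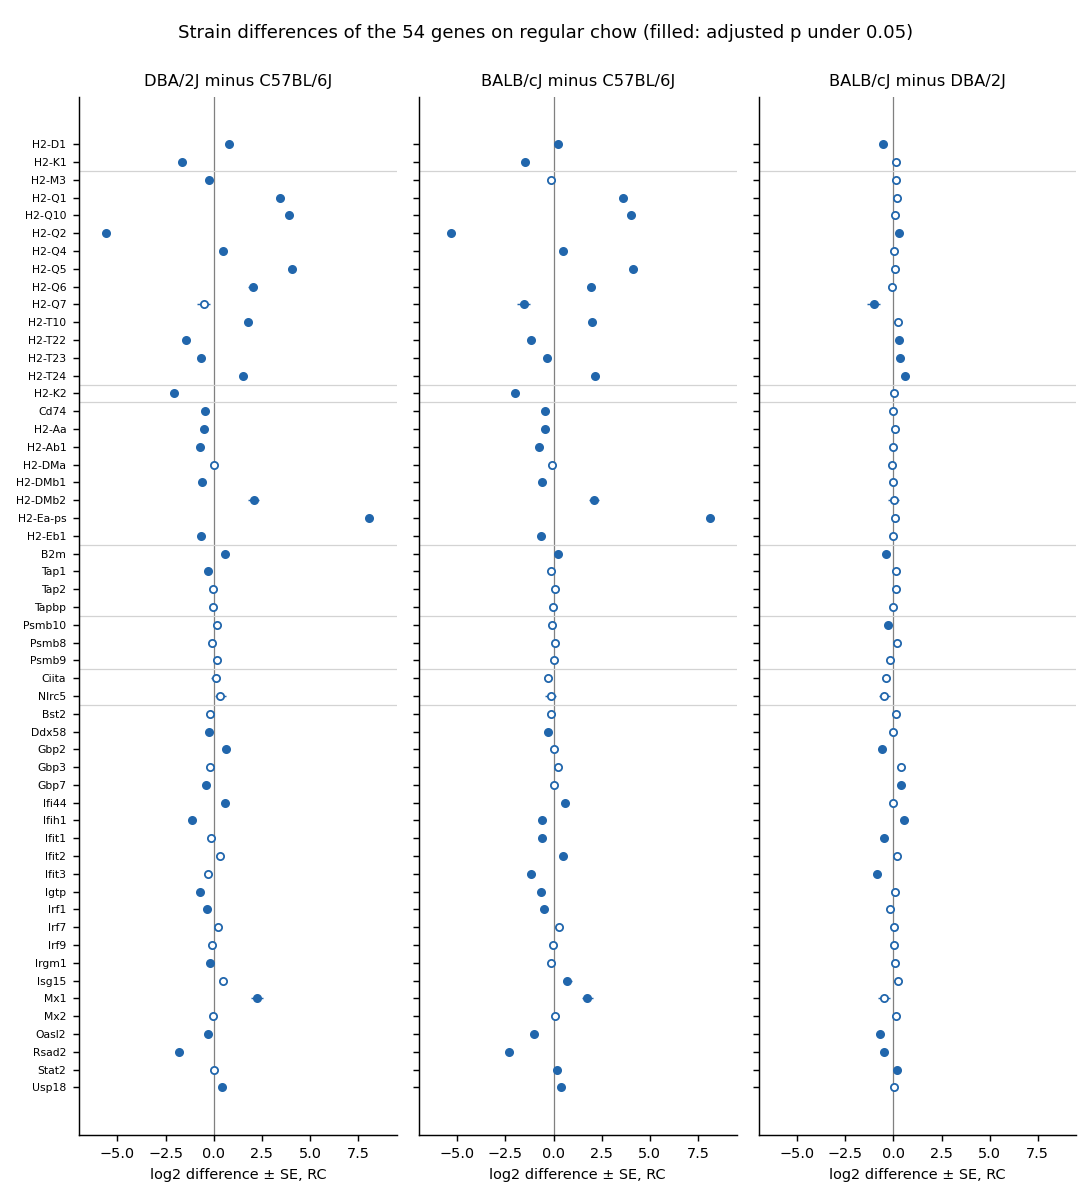
Differences between strains on chow for the 54 members, ordered by role: DBA/2J minus C57BL/6J, BALB/cJ minus C57BL/6J and BALB/cJ minus DBA/2J, in log2 CPM ± SE from limma, with filled points for an adjusted p under 0.05. The H2 genes spread widely in the first 2 panels and lie near 0 in the last; the fitted value of H2-Ea-ps depends on the floor of the scale and is not a bound.

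H2-K1 and H2-D1, the 2 classical class I heavy chains in the table, moved in opposite directions. H2-K1 (chr17:33996017-34000347) ranged from 8.24 to 8.72 (median 8.37) in C57BL/6J on chow, from 6.47 to 7.0 (median 6.80) in DBA/2J and from 6.50 to 7.14 (median 6.90) in BALB/cJ. Every C57BL/6J library lay above every library of the other strains. The fall was 1.66 ± 0.07 (SE) in log2 terms in DBA/2J, or 3.16-fold (limma, Benjamini-Hochberg adjusted p = 3.8e-28), and 1.50 ± 0.07, or 2.84-fold, in BALB/cJ (adjusted p = 1.28e-26); BALB/cJ and DBA/2J differed by 0.16 ± 0.07 (adjusted p = 0.0846), which did not pass.

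H2-D1 (chr17:35262730-35267499) was highest in DBA/2J, where it ranged from 8.51 to 8.95 (median 8.70). It ranged from 7.79 to 8.39 (median 8.21) in BALB/cJ and from 7.78 to 8.26 (median 7.90) in C57BL/6J. The DBA/2J values lay above all others on chow, while those of BALB/cJ and C57BL/6J overlapped. DBA/2J exceeded C57BL/6J by 0.80 ± 0.07, or 1.74-fold (adjusted p = 1.3e-15), and BALB/cJ exceeded it by 0.25 ± 0.07 (adjusted p = 0.000756), a call that was lost without day 33 (0.14, adjusted p = 0.172). BALB/cJ was below DBA/2J by -0.54 ± 0.07 (adjusted p = 4.4e-10), although both carry the d haplotype.

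B2m, the light chain shared by class I molecules (chr2:122147686-122153083), lies outside the MHC and followed the order of H2-D1. It ranged from 5.87 to 6.33 (median 6.04) in C57BL/6J, from 6.48 to 6.94 (median 6.63) in DBA/2J and from 5.98 to 7.08 (median 6.25) in BALB/cJ. The DBA/2J libraries all exceeded the C57BL/6J libraries, by 0.60 ± 0.10 on average (1.52-fold, adjusted p = 2.25e-06). The BALB/cJ libraries overlapped both, and their difference from C57BL/6J was 0.23 ± 0.10 (adjusted p = 0.0468). That call was lost under several settings and after leaving out any of 13 of the 23 chow libraries; on HFD it was larger, 0.40 ± 0.10 (adjusted p = 0.000613), and there it also stood without the third HFD replicate of C57BL/6J at day 13 (0.49) or the fourth HFD replicate of BALB/cJ at day 13 (0.36). BALB/cJ was below DBA/2J by -0.37 ± 0.10 (adjusted p = 0.00281).

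Per kilobase of exon, the scale on which genes can be ranked against each other, H2-K1 (113 CPM per kb), H2-D1 (94.7), B2m (76.6), Cd74 (65.8), Tapbp (44.5) and H2-Q2 (38.6) led the members in C57BL/6J, as means over its 23 libraries. In DBA/2J the order was H2-D1 (168), B2m (122), Cd74 (47.8), Tapbp (43.8), H2-K1 (36.9) and H2-Ea-ps (22.4). In BALB/cJ it was H2-D1 (116), B2m (95), Cd74 (48.8), Tapbp (43.4), H2-K1 (41.3) and H2-Ea-ps (23.9). H2-Q2 thus stood among the 6 leading members in C57BL/6J alone, and H2-Ea-ps in the other strains alone.

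Non-classical class I genes, which bind restricted sets of ligands or serve natural killer and unconventional T cells, showed strain differences in both directions. H2-Q2 (chr17:35342242-35346762) ranged from 6.32 to 6.67 (median 6.47) in C57BL/6J, from 0.57 to 1.19 (median 0.95) in DBA/2J and from 0.94 to 1.61 (median 1.12) in BALB/cJ. C57BL/6J was thus far above both, 48.5-fold over DBA/2J (log2 difference -5.60 ± 0.09, adjusted p = 1.69e-50) and 39.9-fold over BALB/cJ (-5.32 ± 0.09, adjusted p = 3.65e-50). H2-Q10 (chr17:35470089-35474563), a secreted class I molecule best known from liver, showed the reverse: 37 reads in all 23 C57BL/6J libraries, with 6 libraries at 0, against 880 in the 22 DBA/2J and 1222 in the 24 BALB/cJ libraries. Its fitted differences were 3.91 ± 0.17 (adjusted p = 7.12e-28) and 4.0 ± 0.17 (adjusted p = 7.06e-29). H2-Q1 had 12 reads in C57BL/6J, with 14 of 23 libraries at 0, against 475 and 652. H2-Q5 had 146 against 2062 and 2607.

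H2-T22, a ligand of some gamma-delta T cells (chr17:36037128-36042747), ranged from 5.08 to 5.42 (median 5.12) in C57BL/6J, from 3.38 to 4.05 (median 3.71) in DBA/2J and from 3.84 to 4.39 (median 3.94) in BALB/cJ. It fell by 1.46 ± 0.06 in DBA/2J (adjusted p = 9.74e-29) and by 1.18 ± 0.06 in BALB/cJ (adjusted p = 8.34e-25), with no overlap with C57BL/6J. Its close relative H2-T10 (chr17:36115876-36121465) was higher instead, by 1.78 ± 0.11 (adjusted p = 1.71e-20) and 2.00 ± 0.11 (adjusted p = 2.65e-23). H2-T23, which encodes the Qa-1 ligand of NKG2A, was lower by -0.67 ± 0.10 and -0.33 ± 0.10. H2-T24 (1.53 ± 0.18 and 2.13 ± 0.17), H2-Q6 (2.01 ± 0.21 and 1.92 ± 0.21) and H2-Q4 (0.47 ± 0.08 and 0.50 ± 0.07) were higher in both strains. Between the 2 d-haplotype strains, the 6 H2 calls were H2-D1, H2-Q2 (0.28 ± 0.09), H2-T22 (0.28 ± 0.06), H2-T23 (0.34 ± 0.10), H2-T24 (0.60 ± 0.17) and H2-Q7 (-1.02 ± 0.34), all under 1 in size except H2-Q7, whose call was lost with 1 CPM added before the log (-0.24, adjusted p = 0.254).

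**Figure D2:**
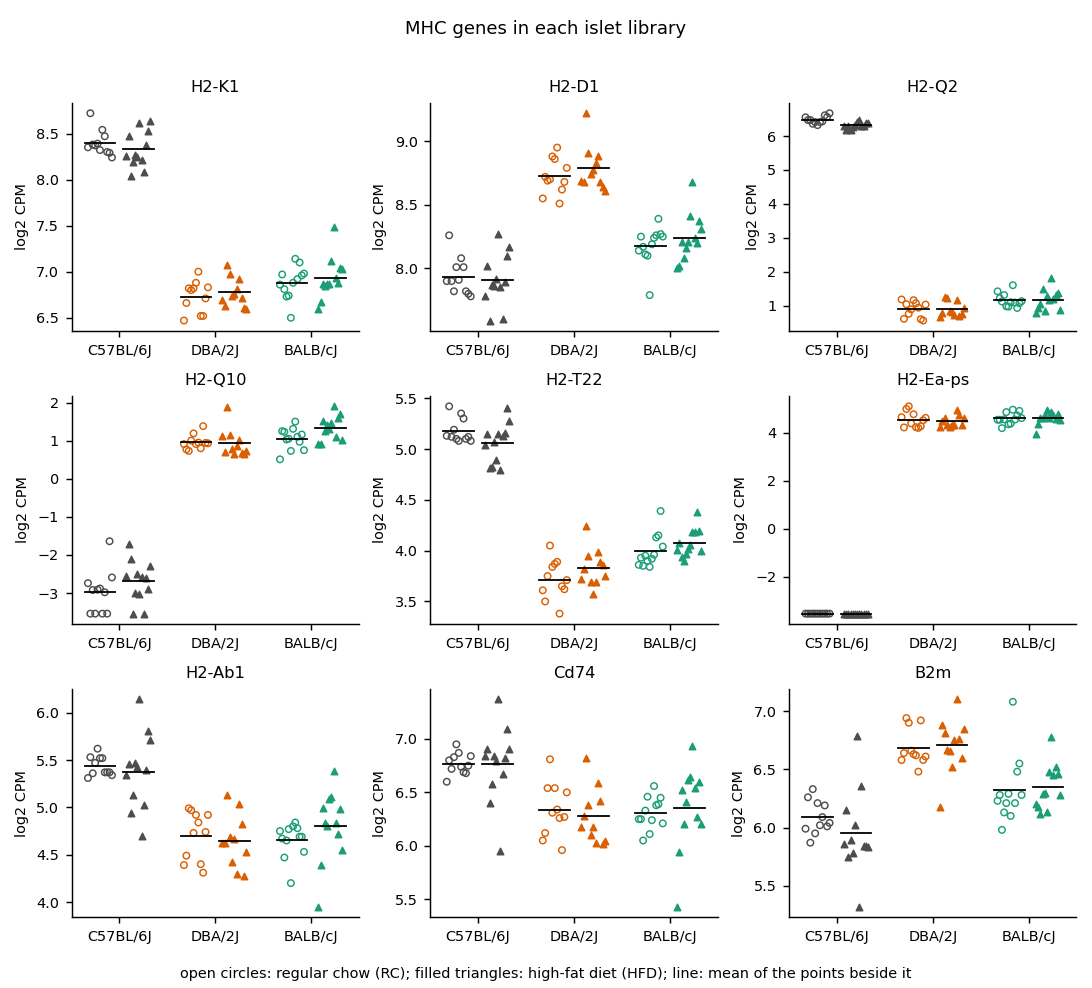
Log2 CPM in each of the 69 libraries for H2-K1, H2-D1, H2-Q2, H2-Q10, H2-T22, H2-Ea-ps, H2-Ab1, Cd74 and B2m by strain, with open circles for chow, filled triangles for HFD and a line at the mean. H2-K1, H2-Q2 and H2-T22 sit higher in C57BL/6J, H2-Q10 and H2-Ea-ps lie at or near the floor there, and the values on chow and HFD overlap within each strain.

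Class II split into a gene with no reads in C57BL/6J and a set of genes at higher levels there. H2-Ea-ps (chr17:34341959-34344645), the alpha chain of the E molecule, had 0 reads in all 23 C57BL/6J libraries. It had 305 to 1014 reads per library in DBA/2J (median 468) and 303 to 978 in BALB/cJ (median 532.5). With a floor of 3 reads over the strain (0.00533 CPM), DBA/2J at 23.3 CPM was at least 4373-fold higher and BALB/cJ at 24.8 CPM at least 4642-fold higher. Mice of the b haplotype are known to make no E alpha chain, so the gene also checks the labels of C57BL/6J against the other strains: no library went against its label. It cannot separate DBA/2J from BALB/cJ. DBA/2J and BALB/cJ differed by 0.06 ± 0.08 (adjusted p = 0.613).

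The genes of the A molecule, the E beta chain and the invariant chain were lower in both strains than in C57BL/6J. H2-Ab1, the A beta chain (chr17:34257689-34269419), ranged from 5.31 to 5.62 (median 5.37) in C57BL/6J, from 4.31 to 4.99 (median 4.74) in DBA/2J and from 4.20 to 4.84 (median 4.69) in BALB/cJ. On chow, all C57BL/6J libraries exceeded those of the other strains, 1.66-fold over DBA/2J (-0.73 ± 0.12, adjusted p = 5.07e-07) and 1.71-fold over BALB/cJ (-0.78 ± 0.11, adjusted p = 6.92e-08). H2-Aa, the A alpha chain, was lower by -0.51 ± 0.10 (adjusted p = 2.19e-05) and -0.46 ± 0.10 (adjusted p = 8.11e-05). H2-Eb1, the E beta chain, was lower by -0.65 ± 0.11 in each (adjusted p = 3.05e-06 and 1.66e-06).

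Cd74, on chromosome 18, ranged from 6.60 to 6.95 (median 6.75) in C57BL/6J, from 5.96 to 6.81 (median 6.31) in DBA/2J and from 6.05 to 6.56 (median 6.29) in BALB/cJ. It was lower by -0.44 ± 0.11 (adjusted p = 0.000549) and -0.46 ± 0.11 (adjusted p = 0.000181), with overlap between C57BL/6J and DBA/2J. The peptide exchange chaperone H2-DM gave 3 patterns: H2-DMa did not pass (0.01 and -0.07), H2-DMb1 was lower by -0.59 ± 0.13 in each and H2-DMb2 was higher by 2.08 ± 0.29 and 2.10 ± 0.28. H2-DMb1 and H2-DMb2 share 114 windows with each other, 7.34% and 6.55% of their own, so reads can be placed on either. In all, 7 of 8 class II genes passed in each strain against C57BL/6J (2 higher, 5 lower). That is 87.5% in each, against 54.5% of all genes in DBA/2J and 56.3% in BALB/cJ. In BALB/cJ against DBA/2J, 0 of 8 passed, against 35% of all genes, and 0 had an unadjusted p under 0.05.

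Markers of other cell types also differed between strains, in both directions. Their part in the class II differences was not tested. Macrophage markers alone were also used as a covariate. Several of them differ with strain, so the covariate cannot tell strain and macrophage level apart. On chow, 6 of the 12 macrophage markers in the table were lower in DBA/2J than in C57BL/6J and 0 higher (among them C1qb, -0.64, and C1qa, -0.46). Macrophage calls in either direction were 50% in DBA/2J and 41.7% in BALB/cJ, below the 54.5% and 56.3% of all genes. In BALB/cJ, 4 were lower (Adgre1, -0.79; C1qb, -0.64; Tyrobp, -0.51; C1qc, -0.44) and C1qa was higher (0.28), although the median of the summed level over all libraries was 142 CPM in BALB/cJ, 138 in C57BL/6J and 111 in DBA/2J. The dendritic-cell marker Itgax was lower in both strains (-0.75, limma adjusted p = 1.16e-06, and -0.37, adjusted p = 0.00792). Zbtb46, the other of the 2 dendritic-cell markers in the table, passed as higher in both. The B-cell marker Cd79a was lower in BALB/cJ (-1.03, limma adjusted p = 3.46e-05). Of the 3 B-cell markers in the table, the other 2 were higher there without passing, and 0 passed in DBA/2J. Of 6 endothelial markers, 6 and 5 were higher (100% and 83.3%), and of 6 acinar markers, 6 and 4 (100% and 66.7%). With the mean macrophage marker level as a covariate, the difference of H2-Ab1 was -0.44 in DBA/2J (adjusted p = 0.000517) and -0.52 in BALB/cJ (adjusted p = 1.9e-05), and that of H2-Eb1 -0.33 (adjusted p = 0.00294) and -0.37 (adjusted p = 0.000435). H2-Aa was -0.26 (adjusted p = 0.0144) and -0.24 (adjusted p = 0.0175), against -0.51 and -0.46 without the covariate. Cd74 became -0.12 in DBA/2J (adjusted p = 0.226), which did not pass, and -0.19 in BALB/cJ (adjusted p = 0.045).

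Within strains, class II genes rose and fell together from mouse to mouse. 18 relations between gene pairs were computed, 6 pairs in each of 3 strains, on deviations of the libraries from their group means, and 7 passed a permutation test of r (100000 permutations, two-sided, p-values adjusted over the 18). Cd74 and H2-Ab1 gave Pearson's r of 0.95, 0.92 and 0.93 in C57BL/6J (23 libraries), DBA/2J (22) and BALB/cJ (24). The permutation adjusted p of r was 6e-05 each, from raw values of 1e-05, the smallest that these permutations can give. Spearman's rho was 0.90, 0.93 and 0.90 (permutation adjusted p = 9e-05, 9e-05 and 0.00012). Without the 2 libraries farthest from the median on the x axis, r was 0.86, 0.92 and 0.87. Ciita and Cd74 gave r of 0.80, 0.74 and 0.70 (permutation adjusted p = 0.0429, 0.0119 and 0.00526). Their rho was 0.45, 0.70 and 0.65 (permutation adjusted p = 0.0222 in DBA/2J and 0.0159 in BALB/cJ). Without the 2 farthest libraries r was 0.29, 0.64 and 0.60, so in C57BL/6J the relation rests on them, and there its rho did not pass (adjusted p = 0.101). Cd74 and the macrophage gene C1qa gave r of 0.43, 0.38 and -0.10, of which none passed, and rho of 0.61 (permutation adjusted p = 0.0484), 0.38 and -0.11. In C57BL/6J the rho passed, and r was 0.72 without the 2 farthest libraries. The remaining pairs were not of class II. Irf7 and Isg15 passed in C57BL/6J alone (r 0.65, permutation adjusted p = 0.015), where their rho of 0.55 did not (permutation adjusted p = 0.0598). Nlrc5 with H2-K1 and Irf7 with C1qa passed in no strain.

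**Figure D3:**
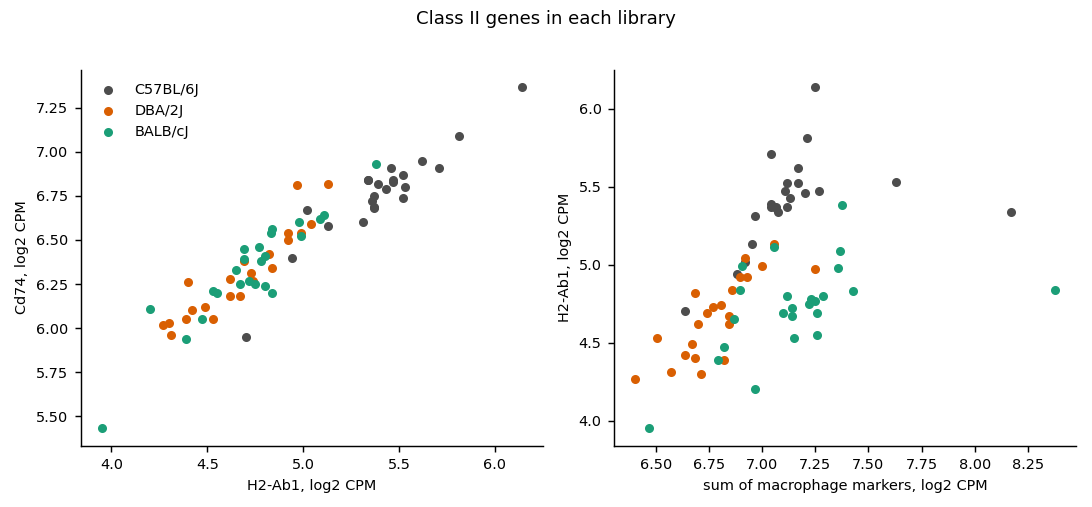
Left, Cd74 against H2-Ab1 in log2 CPM, 1 point per library, coloured by strain. Right, H2-Ab1 in log2 CPM against the log2 of the summed macrophage marker CPM; the left points lie along one band with the C57BL/6J libraries higher in H2-Ab1, and the right points scatter widely within each strain.

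Apart from B2m, described above, the machinery that loads class I differed little between strains on chow. Tap1, a subunit of the peptide transporter, ranged from 3.40 to 3.95 (median 3.51) in C57BL/6J, from 2.96 to 3.80 (median 3.23) in DBA/2J and from 3.20 to 3.63 (median 3.40) in BALB/cJ. The ranges overlapped, and Tap1 was lower in DBA/2J by -0.30 ± 0.09 (adjusted p = 0.00623) and did not pass in BALB/cJ (-0.16, adjusted p = 0.121). With the macrophage covariate the Tap1 call in DBA/2J was lost (-0.19, adjusted p = 0.117). Tap2 (-0.05 and 0.06) and Tapbp (-0.03 and -0.05) did not pass. The intervals of the Tapbp difference on chow, -0.14 to 0.09 and -0.16 to 0.06, were narrow. On HFD, Tap1 (lower) and Tap2 (higher) did pass in BALB/cJ against C57BL/6J. With B2m, 3 of the 4 loading genes passed there (75%, against 54.5% of all genes).

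The immunoproteasome subunits Psmb8, Psmb9 and Psmb10, which replace the standard catalytic subunits under interferon, gave 0 of 3 calls against C57BL/6J in either strain, and 0 had an unadjusted p under 0.05. Over all genes, 54.5% passed in DBA/2J and 56.3% in BALB/cJ. Between BALB/cJ and DBA/2J, Psmb10 was lower by -0.26 ± 0.11 (adjusted p = 0.0489). That call was lost after leaving out any of 16 of the 23 libraries and with voom weights on recovered reads (adjusted p = 0.0734). Of the transactivators, Nlrc5, which drives class I genes, ranged from -0.73 to 0.67 in C57BL/6J, -0.31 to 1.35 in DBA/2J and -0.89 to 2.02 in BALB/cJ, and Ciita from 0.42 to 1.36, 0.01 to 1.76 and -0.19 to 1.59. Neither passed on chow. On HFD, Ciita was lower in DBA/2J than in C57BL/6J (-0.76 ± 0.21, limma adjusted p = 0.00188). The C57BL/6J libraries there include the third HFD replicate of day 13, which stood apart, at 2.56. Medians of Ciita on HFD were 1.02 in C57BL/6J and 0.20 in DBA/2J. The fit without that replicate is not given here.

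Interferon-induced members did not shift as a block between strains. Of the 22, 12 passed in DBA/2J against C57BL/6J (4 higher, 8 lower), 14 in BALB/cJ against C57BL/6J (6 higher, 8 lower) and 8 in BALB/cJ against DBA/2J (3 higher, 5 lower). These are 54.5%, 63.6% and 36.4% of the list, near the 54.5%, 56.3% and 35% of all genes. Rsad2 (viperin), an enzyme that makes a chain-terminating nucleotide (chr12:26442746-26456452), ranged from 3.78 to 4.83 (median 4.31) in C57BL/6J, from 1.73 to 3.29 (median 2.57) in DBA/2J and from 1.01 to 2.41 (median 2.13) in BALB/cJ. C57BL/6J lay above both with no overlap on chow. Rsad2 fell by 1.80 ± 0.18 in DBA/2J (adjusted p = 4.89e-13) and by 2.30 ± 0.17 in BALB/cJ (adjusted p = 1.85e-17). BALB/cJ was below DBA/2J by -0.49 (adjusted p = 0.0207), a call lost without the fourth chow replicate of DBA/2J at day 5 (adjusted p = 0.0553) or of BALB/cJ at day 33 (adjusted p = 0.064).

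Ifih1 (MDA5), a sensor of long double-stranded RNA (chr2:62595798-62646255), separated all 3 strains in order. It ranged from 4.58 to 5.08 (median 4.83) in C57BL/6J, from 4.06 to 4.49 (median 4.21) in BALB/cJ and from 3.33 to 4.12 (median 3.75) in DBA/2J, with overlap only between the last 2. Its differences were -1.14 ± 0.08 in DBA/2J (adjusted p = 2.86e-19) and -0.58 ± 0.08 in BALB/cJ (adjusted p = 3.75e-09) against C57BL/6J, and 0.57 ± 0.08 between BALB/cJ and DBA/2J (adjusted p = 1.04e-08). The related sensor Ddx58 (RIG-I) was lower by -0.26 and -0.28 against C57BL/6J.

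Oasl2 and Ifit3 were lowest in BALB/cJ. Oasl2 ranged from 2.73 to 3.36 (median 3.03) in C57BL/6J, from 2.39 to 3.36 (median 2.62) in DBA/2J and from 1.53 to 2.64 (median 2.04) in BALB/cJ. BALB/cJ was below C57BL/6J with no overlap (-1.01 ± 0.13, adjusted p = 7.71e-10) and below DBA/2J (-0.70 ± 0.13, adjusted p = 6.97e-06). The Oasl2 difference of DBA/2J from C57BL/6J, -0.31 ± 0.13 (adjusted p = 0.0368), was lost after leaving out any of 10 of the 22 libraries, and with the macrophage covariate (-0.19, adjusted p = 0.258). Ifit3, of the family that binds foreign RNA ends, was lower in BALB/cJ than in C57BL/6J by -1.18 ± 0.19 (adjusted p = 5.95e-07) and than in DBA/2J by -0.86 ± 0.19 (adjusted p = 0.000243). Ifit1 went the same way (-0.61 ± 0.15 and -0.47), while Ifit2 was higher in BALB/cJ than in C57BL/6J (0.48 ± 0.16, adjusted p = 0.00854), a call lost without day 33 (0.32, adjusted p = 0.114).

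Mx1, an antiviral GTPase that most inbred laboratory strains carry in a defective form (chr16:97447035-97462907), was low in C57BL/6J, from -1.45 to -0.10 (median -0.59). It was higher in DBA/2J, from 0.85 to 2.48 (median 1.58), and in BALB/cJ, from -0.09 to 2.39 (median 1.24). On chow neither strain overlapped C57BL/6J. The differences were 2.23 ± 0.31 (adjusted p = 1.02e-08) and 1.75 ± 0.30 (adjusted p = 1.43e-06). Usp18, which removes Isg15 from proteins and damps interferon signalling, was higher by 0.40 ± 0.07 (adjusted p = 8.09e-06) and 0.41 (adjusted p = 2.97e-06). Isg15 itself was higher in BALB/cJ (0.71 ± 0.22, adjusted p = 0.00433), which was lost without day 33 (0.27, adjusted p = 0.405), and was 0.49 higher in DBA/2J without passing (adjusted p = 0.0544).

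Igtp (Irgm3), an immunity-related GTPase of the response to interferon gamma, was lower in both strains. It ranged from 3.39 to 3.81 (median 3.61) in C57BL/6J, from 2.69 to 3.27 (median 2.78) in DBA/2J and from 2.73 to 3.12 (median 2.98) in BALB/cJ. The chow libraries of C57BL/6J lay above all others. The differences were -0.74 ± 0.08 in DBA/2J (adjusted p = 7.51e-12) and -0.64 ± 0.08 in BALB/cJ (adjusted p = 3.33e-10). Irf1, the transcription factor that relays interferon gamma to class I and the immunoproteasome, was lower by -0.33 (adjusted p = 6.72e-05) and -0.49 (adjusted p = 9.87e-09). The guanylate-binding proteins did not share a direction: Gbp2 was higher in DBA/2J than in C57BL/6J (0.61 ± 0.14, adjusted p = 0.000352) and than in BALB/cJ (-0.58 for BALB/cJ minus DBA/2J, adjusted p = 0.000638), Gbp7 was lower in DBA/2J than in both (-0.38 against C57BL/6J, 0.40 for BALB/cJ minus DBA/2J), and Gbp3 did not pass. Irf7, Irf9, Bst2 and Mx2 also did not pass on chow.

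**Figure D4:**
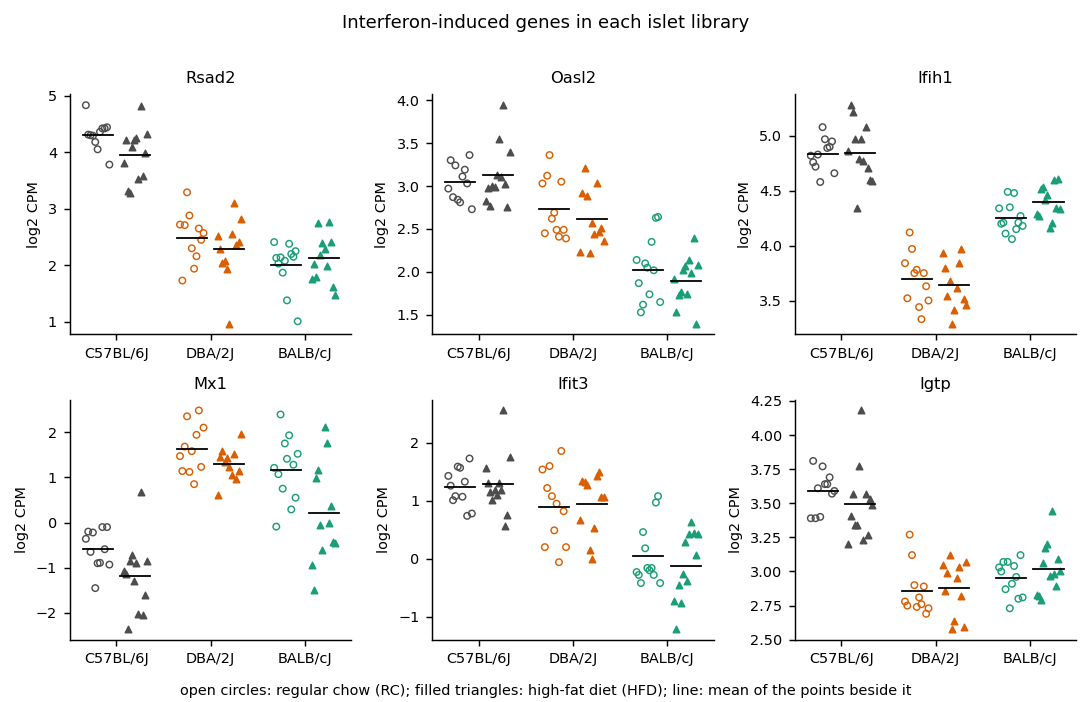
Log2 CPM in each library for Rsad2, Oasl2, Ifih1, Mx1, Ifit3 and Igtp by strain, with open circles for chow, filled triangles for HFD and a line at the mean. Rsad2, Ifih1 and Igtp are highest in C57BL/6J, Mx1 is lowest there, and Oasl2 and Ifit3 are lowest in BALB/cJ.

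Other genes of these pathways were taken from 3 further lists. Of 23 interferon receptor and signalling genes in the table, 10 passed in DBA/2J (5 higher, 5 lower; 43.5%) and 13 in BALB/cJ (6 higher, 7 lower; 56.5%) against C57BL/6J, where 54.5% and 56.3% of all genes did. Jak2, the kinase of the interferon gamma receptor, was lower by -0.33 (adjusted p = 1.69e-06) and -0.40 (adjusted p = 7.49e-09), and Ifnar1, a chain of the type I receptor, was higher by 0.21 (adjusted p = 2.98e-06) and 0.27 (adjusted p = 4.3e-09). Of 46 other interferon-induced genes, 24 (7 higher, 17 lower; 52.2%) and 28 (12 higher, 16 lower; 60.9%) passed. Cmpk2, which lies beside Rsad2 in the genome, was lower by -1.35 (adjusted p = 2.12e-19) and -1.50 (adjusted p = 6.41e-22). Of 26 other antigen processing genes, 15 (57.7%) and 17 (65.4%) passed, among them Ctss, the protease that trims the invariant chain, at -0.61 (adjusted p = 5.15e-08) and -0.79 (adjusted p = 1.43e-11).

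The libraries on HFD, which are other mice, gave the strain differences a second time. On HFD, 39 members passed in DBA/2J against C57BL/6J (16 higher, 23 lower, against 58.6% of all genes), 40 in BALB/cJ against C57BL/6J (18 higher, 22 lower, against 54.5%) and 16 in BALB/cJ against DBA/2J (9 higher, 7 lower, against 35.1%). Of the members called on chow and on HFD, 34 were called with the same sign in DBA/2J against C57BL/6J, which is 97.1% of the chow calls and 87.2% of the HFD calls (76.7% and 71.3% over all genes). In BALB/cJ against C57BL/6J it was 35 (97.2% and 87.5%, against 73.2% and 75.7%), and in BALB/cJ against DBA/2J 12 (75% of each, against 78.2% and 77.9%). H2-K1 on HFD differed by -1.55 and -1.39 and H2-D1 by 0.88 and 0.33. Cd74 differed by -0.50 (adjusted p = 5.41e-05) and -0.41 (adjusted p = 0.000715). Mx1 was lower in BALB/cJ than in DBA/2J on HFD (-1.09 ± 0.30, adjusted p = 0.0026).

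Over both diets and all days, 12 of the 54 members (22.2%) had no overlap between any DBA/2J and any C57BL/6J library, against 5.98% of all genes: Ifih1, Usp18, H2-K2, H2-K1, H2-Ea-ps, H2-D1, H2-Q1, H2-Q2, H2-Q5, H2-Q10, H2-T22 and H2-T10. Between BALB/cJ and C57BL/6J it was also 12 (22.2%, against 5.29%), with Oasl2, Rsad2 and H2-T24 in place of Ifih1, Usp18 and H2-D1. Between BALB/cJ and DBA/2J it was 0, against 3.84%.

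The comparison of HFD with chow asked whether diet moves these genes, and few passed. Averaged over strains and days, 3 of 54 members passed (5.56%, against 5.47% of all genes): Psmb10 (0.28 ± 0.06, adjusted p = 0.00342) and H2-T10 (0.28 ± 0.06, adjusted p = 0.00578) rose and Mx1 fell (-0.64 ± 0.17, adjusted p = 0.0171). These 3 calls stood whichever library was left out, with ranges of 0.26 to 0.30, 0.25 to 0.31 and -0.71 to -0.59. H2-K1 (0.01), H2-D1 (0.04), B2m (-0.03) and Cd74 (-0.01) were close to 0, and 0 of the 8 class II genes passed with limma, 0 having an unadjusted p under 0.05. With the macrophage covariate Mx1 was -0.56 (adjusted p = 0.0791) and did not pass, and Psmb10 was 0.34 (adjusted p = 0.000564).

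In C57BL/6J, 5 of 54 members passed (9.26%, against 14.6% of all genes). H2-T10 ranged from -0.93 to 0.30 (median -0.10) on chow and from -0.23 to 0.72 (median 0.26) on HFD and rose by 0.51 ± 0.11 (adjusted p = 0.00146). Stat2, a transcription factor of the type I interferon response, ranged from 4.50 to 4.89 (median 4.68) on chow and from 4.72 to 5.16 (median 4.93) on HFD and rose by 0.21 ± 0.05 (adjusted p = 0.00521). The 2 diets overlapped for both genes. Psmb10 ranged from 2.71 to 3.61 (median 3.00) and from 3.03 to 3.86 (median 3.42) and rose by 0.35 ± 0.11 (adjusted p = 0.0189). Psmb9 rose by 0.30 ± 0.10 (adjusted p = 0.0366), and Usp18 fell by 0.23 ± 0.07 (adjusted p = 0.0267), from a median of 4.15 to 4.0. Psmb8, the remaining immunoproteasome subunit, was 0.21 higher and did not pass (adjusted p = 0.151).

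Without the third HFD replicate of C57BL/6J at day 13, which stood apart, 3 members passed in C57BL/6J: H2-T10 (0.51, adjusted p = 0.00284), Stat2 (0.21, adjusted p = 0.0105) and Psmb10 (0.30, adjusted p = 0.0482), while Psmb9 (0.24, adjusted p = 0.0984) and Usp18 (-0.20, adjusted p = 0.057) did not. The count was also 3 without the second HFD replicate of day 5, the second HFD replicate of day 33 or the first chow replicate of day 33. The macrophage markers Lyz2 (-0.98, adjusted p = 0.0151) and Adgre1 (-0.38, adjusted p = 0.0211) fell in the same comparison. With the macrophage covariate, H2-T10 (0.50), Psmb10 (0.46), Psmb9 (0.36) and Stat2 (0.19) passed and Usp18 did not (-0.22, adjusted p = 0.0549). With the number in each title as a covariate, none of the 5 passed (H2-T10 0.10; Psmb10 0.59, adjusted p = 0.388). What that number stands for is not given in the sources used here.

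DBA/2J and BALB/cJ gave no member past the threshold with limma. In DBA/2J, 0 of 54 passed (0% of all genes), 1 had an unadjusted p under 0.05 and voom called 0; Psmb10 was 0.14 higher (95% interval -0.08 to 0.35). In BALB/cJ, 0 passed (0.151% of all genes), 4 had an unadjusted p under 0.05 and voom called 0; Psmb10 was 0.34 ± 0.10 higher (adjusted p = 0.183) and Mx1 was lower (-0.97 ± 0.29, adjusted p = 0.183). The difference of the diet effect between strains was tested directly, and 0 members passed in DBA/2J against C57BL/6J (background 1.11%, 6 with an unadjusted p under 0.05, voom 0), in BALB/cJ against C57BL/6J (1.27%, 4, voom 1) or in BALB/cJ against DBA/2J (0%, 1, voom 0). Nearest was Stat2, whose effect was -0.23 ± 0.08 (adjusted p = 0.0906) in DBA/2J and -0.26 ± 0.08 (adjusted p = 0.0569) in BALB/cJ relative to C57BL/6J. The diet calls of C57BL/6J are therefore not shown to be particular to that strain.

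**Figure D5:**
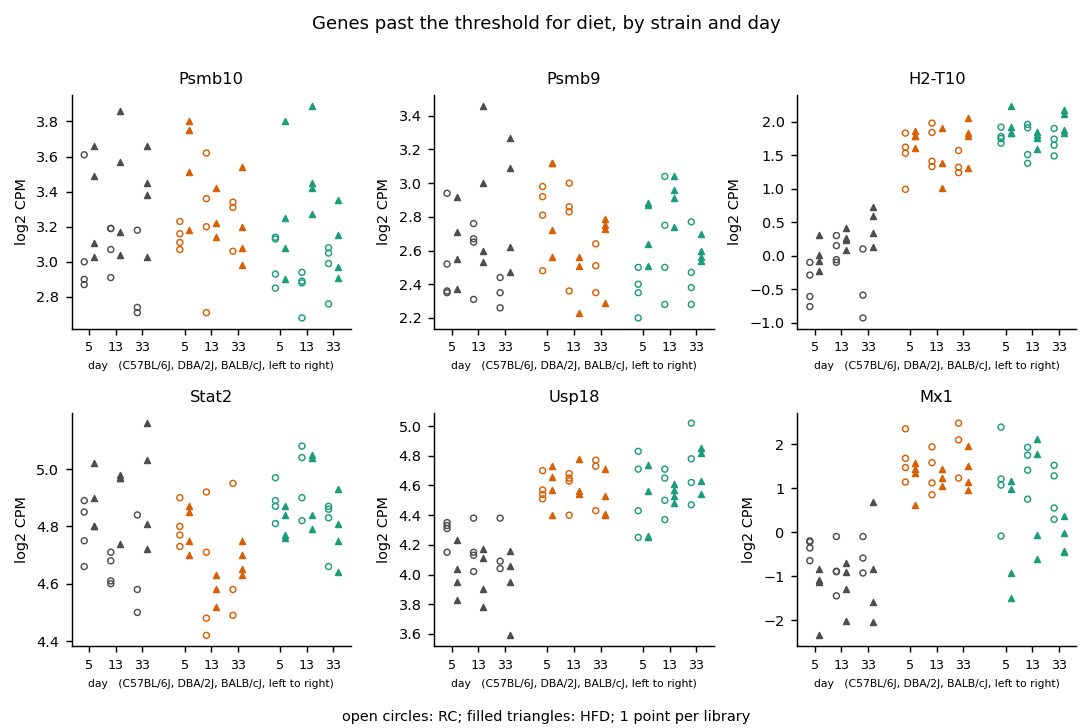
Log2 CPM of Psmb10, Psmb9, H2-T10, Stat2, Usp18 and Mx1 by strain and day, 1 point per library, open on chow and filled on HFD. The diets overlap in most strain and day pairs. Averaged over days, H2-T10 and Mx1 differ more between the strain of the b haplotype and those of the d haplotype than between diets. On chow, the strains of the d haplotype differ from each other in both genes by less than the largest diet difference within a strain.

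By day, 1 member passed in 1 of 9 strain and day pairs. Irf1 in C57BL/6J at day 5 was 5.32, 6.16, 5.20 and 5.61 on chow and 5.27, 5.12, 5.12 and 5.15 on HFD, a difference of -0.40 ± 0.11 (limma adjusted p = 0.0475, background 1.87%). One chow library, at 6.16, stood well above the others, and the call was lost after leaving out any of 6 of the 8 libraries (-0.53 to -0.21). Diet and the number in the titles cannot be told apart in this pair. The other 8 pairs gave 0 members with limma. Of all genes, 1.04% passed in C57BL/6J at day 13 and 0% at day 33, 0.548%, 0% and 0.0205% in DBA/2J at days 5, 13 and 33, and 0.315%, 0.00685% and 0% in BALB/cJ. Unadjusted p-values under 0.05 were found for 0 to 10 members in these 8 pairs.

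In lists of related genes in C57BL/6J, where 14.6% of all genes passed, 2 of 23 receptor and signalling genes (8.7%), 6 of 46 other interferon-induced genes (13%) and 6 of 26 antigen processing genes (23.1%) passed. Cmpk2 fell by 0.66 on the log2 scale (adjusted p = 4.83e-06). The antigen processing calls were Psme1, an activator subunit of the proteasome, higher by 0.14, and 5 lower genes, of which Canx (-0.30), Calr (-0.32) and Pdia3 (-0.28) encode chaperones of the endoplasmic reticulum that fold class I and many other proteins. In DBA/2J and BALB/cJ, 0 genes of these lists passed with limma. Unadjusted p-values under 0.05 were found for 0, 0 and 1 genes of the 3 lists in DBA/2J, and for 1, 4 and 4 in BALB/cJ.

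Between day 33 and day 5, members passed in DBA/2J on HFD alone: 5 of 54 (9.26%, against 23.3% of all genes; voom called 2). Tap1 was 3.77, 3.39, 3.93 and 3.86 at day 5 and 3.44, 3.15, 3.18 and 3.28 at day 33, and fell by 0.48 ± 0.15 (adjusted p = 0.0209). Tap2 (-0.37 ± 0.14, adjusted p = 0.0447), H2-DMa (-0.51 ± 0.17, adjusted p = 0.0277) and Bst2 (-0.50 ± 0.18, adjusted p = 0.034) fell too, and Gbp2 rose by 0.64 ± 0.24 (adjusted p = 0.0437). Values of the 2 days overlapped for Tap1, Tap2, Bst2 and Gbp2, and did not for H2-DMa, which was 2.44 to 2.99 at day 5 and 1.78 to 2.41 at day 33. Summed macrophage markers were 104 to 133 CPM at day 5 and 84.7 to 121 at day 33. With the macrophage covariate 5 members passed as well, Bst2 not among them (-0.42, adjusted p = 0.0722).

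These 5 calls rested on few mice. Without the third HFD replicate of DBA/2J at day 5, which stood apart, 0 passed, and also 0 without the fourth; 1 passed without the second HFD replicate of day 33, 1 without the third and 2 without the fourth. In the other 5 combinations of strain and diet, 0 members passed with limma. Of all genes, 0.123%, 0.00685% and 0.00685% passed on chow in C57BL/6J, DBA/2J and BALB/cJ, and 0.233% and 0.555% on HFD in C57BL/6J and BALB/cJ. Of the members, 2 to 5 had an unadjusted p under 0.05, and voom called 2 in C57BL/6J on chow and 0 elsewhere.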

How the data were processed

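RNA-seq values of 69 islet libraries were used. Of the 72 samples labelled, 3 had no matching column and were not analysed here. The authors deposited log2 CPM per gene, with STAR 2.5.3a, HTSeq 0.9.1, edgeR and GRCm38 named per the submitters' processing notes, and stranded poly(A) libraries read as 125-base single ends per the labels' protocols. Whole reads recovered from the deposited log2 values (100% whole within 0.05 reads) gave the depths. Gene positions and exon lengths came from GENCODE M21 on GRCm38. limma 3.58.1 in R 4.3.3 (lmFit, eBayes with trend) was fitted with 1 mean per group over all 69 libraries and 28 contrasts, and p-values were adjusted (Benjamini-Hochberg) within each contrast over 14604 genes. The fit was first checked on artificial shifts of known size. Python 3.11.15, numpy 2.4.6, scipy 1.17.1, pandas 2.3.3 and matplotlib 3.10.9 did the rest. Relations used permutation tests.

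The members and lists were chosen with earlier results of these data known. All members may be named; full statistics go to a fixed set of 28 genes and to up to 8 members with the lowest adjusted p in each direction of a comparison. Alternatives were 2 other scalings, a filter on low values, 1 CPM added before the log, no variance trend, library weights, fits of only the strains compared, the number in each title or the macrophage marker mean as covariate, voom on recovered reads, the title number as a replicate block (added after seeing the data), and leaving out each library or day. A planned edgeR count test was not run, since the deposited unit is log2, and voom took its place, chosen after seeing the data. Intervals cover the spread between mice.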

Additional observations from a re-analysis of the deposited data

Results flagged for a closer look

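The 12 named members were checked in the 15 groups of 4 libraries for a library far from the other 3 (a gap, as a share of the group's range, above Dixon's 95% critical value), and 15 of 180 checks marked one; chance marks about 1 in 20 groups. All values are log2 CPM, and none was given an explanation.

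In C57BL/6J on HFD at day 13, the third replicate had H2-K1 at 8.61 (others 8.21 to 8.27) and H2-D1 at 8.27 (others 7.85 to 7.92). On HFD at day 33, the first replicate had B2m at 6.36 (5.83 to 5.84) and Gbp2 at 2.29 (1.52 to 1.58). On chow at day 5, the second replicate had H2-K1 at 8.72 (8.35 to 8.38) and Tap1 at 3.95 (3.46 to 3.55), and the first had Gbp2 at 2.58 (2.02 to 2.05). On chow at day 13, Tap1 was low in the second replicate, at 3.40 (3.69 to 3.74).

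In DBA/2J, H2-D1 was low in the first chow replicate of day 5, at 8.55 (8.69 to 8.72). On HFD at day 5, H2-Ab1 was high in the third replicate, at 5.13 (4.62 to 4.69), and Isg15 low in the first, at -0.63 (0.12 to 0.26).

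In BALB/cJ on chow at day 33, the second replicate had H2-D1 at 8.39 (8.25 to 8.27) and Irf7 at 2.66 (2.00 to 2.03). H2-Ab1 was low in the second chow replicate of day 13, at 4.20 (4.77 to 4.84), and Irf7 in the third HFD replicate of day 33, at 1.85 (2.27 to 2.34).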

How the results depend on the processing

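The strain differences were the most stable: of 2514 values of 182 member results under the alternatives, 2367 kept direction and call, 146 lost the call and 1 changed sign, Ifi44 in BALB/cJ against C57BL/6J on chow, at -0.04 with the title number (0.58 otherwise). Leaving out each library in turn gave 34 to 36, 35 to 37 and 14 to 18 calls on chow (DBA/2J against C57BL/6J, BALB/cJ against C57BL/6J, BALB/cJ against DBA/2J) and 37 to 41, 36 to 41 and 12 to 20 on HFD. BALB/cJ against DBA/2J had 16 calls on each diet, but 10 on chow without day 33, and on HFD 8 without day 13 and 25 with library weights. Neither other scaling shifted the median of all genes by over 0.03.

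Diet and time counts moved more, and the cause was not tested. Over strains the 3 calls became 1 without day 33, 0 without day 5, 6 with the macrophage covariate and 11 with library weights, and 3 to 6 without 1 library (6 without the first or second HFD replicate of C57BL/6J at day 13, its first HFD replicate at day 33, its second chow replicate at day 5 or the second HFD replicate of DBA/2J at day 5; 5 without the third HFD replicate of DBA/2J at day 33 or the third chow replicate of DBA/2J at day 13). In C57BL/6J the 5 became 2 without day 33, 1 without day 13, 2 without day 5, 0 with the title number and 14 with library weights (3 to 6 without 1 library). At day 5 the 1 became 0 with the title number, no trend, the macrophage covariate or only the strain compared, 2 with library weights and 3 with voom (0 to 1). At day 13 the 0 became 1 with the macrophage covariate, 1 with the title number and 12 with library weights (0 to 3), and at day 33 6 with library weights (0 to 3). In DBA/2J the 0 became 1 over days and 17 at day 5 with library weights (0 to 0 and 0 to 1). In BALB/cJ it became 1 over days with the title number and 1 at day 13 with library weights (0 to 0 each). Of the interactions, DBA/2J against C57BL/6J went from 0 to 1 without day 33 and 6 with library weights (0 to 0), and BALB/cJ against C57BL/6J to 2 with library weights, 1 with voom and 1 with the title number as a random block (0 to 1).

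From day 5 to day 33, DBA/2J on HFD went from 5 to 3 with only its strain, 18 with library weights, 0 with the title number and 2 with voom (0 to 6 without 1 library). Chow counts of 0 became 1 with 1 CPM added, 2 with voom and 3 with library weights in C57BL/6J (0 to 1), 3 with library weights in DBA/2J and 1 with the title number in BALB/cJ. HFD counts of 0 became 3 with library weights in C57BL/6J and 4 with the title number in BALB/cJ. Diet values of DBA/2J near 0, none called, changed sign: Psmb10 (0.14) was -0.00 without day 5; Psmb9 (-0.03) was 0.11 without day 13, 0.01 with the macrophage covariate and -0.08 to 0.00 without 1 library; Stat2 (-0.02) was 0.00 without day 13, 0.04 with library weights, 0.05 in the paired fit and -0.05 to 0.03 without 1 library; Usp18 (-0.03) was 0.02 without day 33.

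The labels give no replicate numbers, but 21 pairs of chow and HFD libraries share a strain, a day and the number in their titles. These lie in 8 of the 9 strain and day pairs, all but C57BL/6J at day 5. Beyond strain and day, the libraries of a pair share only that number: deviations from the group means correlated over 0.1 in 9 of the 21 (range -0.29 to 0.35). Chosen after seeing the data, a random replicate block by that number (correlation 0.06) changed no count by over 1.5 times except the interaction named above, and a fixed replicate block in the paired libraries gave, in C57BL/6J over days 13 and 33, 1 member, Stat2 (0.35, adjusted p = 0.0239), while H2-T10 (0.54, adjusted p = 0.0569) and Psmb10 (0.40, adjusted p = 0.079) did not pass. The edgeR test was not run. The filter on low values left 43 members, so 11 members have no value under it. Depth limits members with few reads, such as H2-Q1, H2-Q10, H2-Q5 and H2-DMb2 in C57BL/6J and H2-Q7 in BALB/cJ, where 1 read moves the log2 value.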

Other observations

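Counting, for each library, the members in which it held its strain's extreme value showed how unevenly extremes were spread. The third HFD replicate of C57BL/6J at day 13 was highest for 26 of 53 members, with a macrophage marker sum of 152 CPM. H2-Q6 stood at 3.25 there, where the rest of its group had 1.08, 0.18 and -0.62, and H2-Q7 at 2.74, where the rest had 0.19, -0.46 and -0.38. Class II and its regulators were high as well, with Cd74 at 7.37, H2-Ab1 at 6.14, Ciita at 2.56 and Nlrc5 at 2.46, as were B2m at 6.79 and Gbp2 at 3.08. Only 6 of the 26 were interferon-induced members, and Ifit3 (1.31) and Mx1 (-0.90) were not highest there.

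The fourth replicate of the same group held the lowest value for 12 members, with a macrophage sum of 99.5 CPM. The fourth HFD replicate of BALB/cJ at day 13 was highest for 20 of 54 members (macrophage sum 166 CPM), and the third HFD replicate of DBA/2J at day 5 for 18 of 54 (133 CPM), of which 1 was an interferon-induced member. The second chow replicate of BALB/cJ at day 13 was lowest for 14.

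Between the 2 strains that share the d haplotype, some genes of the interferon response outside the members differed widely on chow. Ifi44l was 4.14 higher in BALB/cJ than in DBA/2J in log2 terms, Gbp9 was 2.48 higher and Xaf1 differed by -2.06 (limma adjusted p = 3.6e-23). The size for Ifi44l depends on the floor of the scale, since its median over all DBA/2J libraries was -3.54. Its mean over both diets was 0.00858 CPM in DBA/2J, 0.0371 in C57BL/6J and 1.8 in BALB/cJ. Mr1, which presents vitamin B metabolites to MAIT cells, was 1.06 higher in BALB/cJ than in DBA/2J. These genes were chosen after their values were seen.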
